A study of Mus musculus with 4 samples.

Results

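The chemokines and their receptors were described in mouse embryonic fibroblasts (MEFs) grown alone or beside bone-marrow mesenchymal stem cells (MSCs). The members were taken by symbol, as every gene of the Ccl, Cxcl, Ccr, Cxcr and Ackr series together with Ppbp, Pf4, Xcl1 and Cx3cl1, which gave 60 of the 21839 genes in the table. Of these, 40 code for ligands, 16 for signalling receptors and 4 for atypical receptors. At least 1 read was found for 41 members, and 25 reached 1 FPKM (fragments per kilobase of transcript and per 1000000 mapped reads) in at least 1 library. RNA was measured in 4 conditions at 48 h, all in wild-type MEFs prepared from C57BL/6 embryos at day 13.5. The fibroblasts were cultured alone, cocultured with MSCs across an insert membrane with 0.4 µm pores, or kept in each of these ways with QNZ, an inhibitor of NF-κB, at a dose that the sources used here do not give. The RNA came from the harvested fibroblasts. Each condition was 1 library, so the spread between cultures is unknown and no test between conditions was run.

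Chemokines are small secreted proteins that steer cells along a gradient. They bind G-protein-coupled receptors on the moving cell, and they are held on the heparan sulphate chains of the tissue so that the gradient stays in place. CC ligands mainly attract monocytes, lymphocytes and eosinophils, CXC ligands with a Glu-Leu-Arg (ELR) motif attract neutrophils, and the CXC ligands of CXCR3 attract activated T cells and are induced by interferon. Atypical receptors bind chemokines without G-protein signalling and remove or carry them. Stromal fibroblasts are a known source of ligands, many of which are classical NF-κB targets.

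The promoters of 5 members of the CXC group on chromosome 5 are shown as examples. Cxcl1, Cxcl2, Cxcl3 and Ppbp lie in 1 cluster, and Cxcl10 lies in another. The windows are RefSeq sequences of build GRCm38.p6, from 250 bases before to 50 bases after the gene start, 5′ to 3′ on the strand of the gene. Capitals mark matches to the κB consensus, the DNA element bound by NF-κB, where overlapping matches are joined. The windows are chr5:90890995-90891294 (+) for Cxcl1, chr5:90903649-90903948 (+) for Cxcl2, chr5:90785851-90786150 (+) for Cxcl3, chr5:92348840-92349139 (-) for Cxcl10 and chr5:90768268-90768567 (+) for Ppbp.
Cxcl1: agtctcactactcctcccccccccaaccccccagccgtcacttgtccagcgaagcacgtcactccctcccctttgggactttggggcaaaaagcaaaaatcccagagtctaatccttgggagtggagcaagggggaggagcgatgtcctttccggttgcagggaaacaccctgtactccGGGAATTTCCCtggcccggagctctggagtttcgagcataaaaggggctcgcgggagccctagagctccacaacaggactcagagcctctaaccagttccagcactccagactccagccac
Cxcl2: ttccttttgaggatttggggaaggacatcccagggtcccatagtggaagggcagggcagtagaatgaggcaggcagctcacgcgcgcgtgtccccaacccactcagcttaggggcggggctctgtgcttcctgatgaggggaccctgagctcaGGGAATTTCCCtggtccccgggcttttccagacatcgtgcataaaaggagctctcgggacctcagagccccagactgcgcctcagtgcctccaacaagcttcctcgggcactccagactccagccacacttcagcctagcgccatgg
Cxcl3: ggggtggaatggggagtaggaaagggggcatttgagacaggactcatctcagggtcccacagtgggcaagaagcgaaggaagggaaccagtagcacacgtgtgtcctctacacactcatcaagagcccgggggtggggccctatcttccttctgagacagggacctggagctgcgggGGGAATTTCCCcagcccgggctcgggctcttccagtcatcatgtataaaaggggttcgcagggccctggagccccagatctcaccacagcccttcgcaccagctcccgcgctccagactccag
Cxcl10: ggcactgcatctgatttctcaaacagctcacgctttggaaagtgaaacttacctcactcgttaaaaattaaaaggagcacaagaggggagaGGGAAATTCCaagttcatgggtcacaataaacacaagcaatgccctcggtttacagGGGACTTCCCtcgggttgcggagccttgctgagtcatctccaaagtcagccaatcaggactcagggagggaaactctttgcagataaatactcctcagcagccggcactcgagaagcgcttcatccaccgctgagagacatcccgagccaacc
Ppbp: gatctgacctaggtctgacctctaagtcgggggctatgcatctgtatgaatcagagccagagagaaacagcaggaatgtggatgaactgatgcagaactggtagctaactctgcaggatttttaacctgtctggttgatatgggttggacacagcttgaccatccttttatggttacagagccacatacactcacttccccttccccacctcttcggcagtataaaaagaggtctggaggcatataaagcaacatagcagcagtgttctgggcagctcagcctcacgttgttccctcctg
Cxcl1, Cxcl2 and Cxcl3 carried the same run of letters in capitals, whose first base lay 71, 97 and 73 bases before the gene start. Cxcl10 held 2 other matches, 159 and 103 bases before the start, and the Ppbp window held none. The window of Cxcl9, which lies beside Cxcl10 and is not shown, also held none. On both strands and with overlaps allowed, the κB consensus was found in 10 of the 45 members with a RefSeq window, and in 4.51% of 32851 promoters of the same length. Among the 18 members with a window and at least 1 FPKM, 7 held a match, which were Ccl20, Ccl27a, Ccl9, Cxcl1, Cxcl10, Cxcl2 and Cxcl3. The match of Ccl27a began 30 bases after the start in its window, and its other windows held none. The interferon-response letters GAAA, any 2 bases and GAAA again were found in 3 of the 45 members, Cxcl10 and Cxcl14 among them, and in 3.44% of all promoters. TATAAA was found in 14 of the 45 members and in 13.6% of all promoters. Some members, such as Ccl25 and Ccl27a, had several windows and counted if any of them matched, while the percentages are over single promoters. A match describes letters in the window and not a bound site. Of the members with at least 1 FPKM, no window was used for Ccl2, Ccl4, Ccl5, Ccl7, Ccl11, Cxcl5 and Cxcl16.

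In all that follows, 4 values in a row stand for fibroblasts alone, fibroblasts cocultured with MSCs, fibroblasts alone given QNZ, and the coculture given QNZ. The libraries held 15407979, 14872767, 15778488 and 13153696 reads on genes. Of 10 fibroblast markers, 9 were at or above 1 FPKM in every library, with a summed level of 2084, 2012, 1154 and 1341 FPKM. The 14 leukocyte markers summed to 8.54, 17.6, 12.3 and 11.7 FPKM, with 3, 3, 4 and 3 of them at or above 1 FPKM and 5, 2, 4 and 7 without a read, and Cd3e, which defines T cells, had no read in any library. The 6 endothelial markers summed to between 0.270 and 0.631 FPKM. The 10 bone marrow stromal markers summed to 535, 347, 216 and 227 FPKM, and none was without a read in any library. Ly6a carried most of this sum, at 446, 227, 129 and 124 FPKM. Cspg4 at 2.71, 18.2, 3.95 and 23.6 FPKM, Kitl at 0.527, 4.20, 1.74 and 5.08 FPKM and Vcam1 at 23.0, 41.3, 19.9 and 32.5 FPKM were higher in both cocultured libraries. Nes at 25.0, 17.8, 36.6 and 23.3 FPKM and Eng at 10.1, 8.74, 9.30 and 6.48 FPKM were lower in both. Mcam was at 28.0, 28.8, 15.0 and 11.1 FPKM, and Lepr, Ebf3 and Nt5e stayed below 1 FPKM. The part of marker RNA of this kind in the coculture differences was not tested. In bulk RNA, fewer cells of a type and less RNA per cell cannot be told apart. Comparisons were made on log2(FPKM + 1), and a difference of at least 1 was counted, as higher or as lower. This scale understates the difference of genes with low values. Ratios are of reads per 1000000 reads (CPM) with exact binomial 95% intervals, which cover counting error only.

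The ligands made up nearly all the chemokine RNA of the fibroblasts, and 2 monocyte attractants made up most of the ligands. Summed over the 40 ligands, the level was 2308, 2028, 1367 and 2054 FPKM. Ccl2, the principal ligand of CCR2, was at 781, 830, 539 and 824 FPKM and overlaps Gm17268 on the other strand. Ccl7, a further monocyte attractant that lies next to it on chromosome 11, was at 1069, 778, 646 and 921 FPKM. Together they held 80.2, 79.3, 86.7 and 84.9% of the summed ligand FPKM. Ccl2 was the gene with rank 63, 12, 87 and 17 by FPKM among all genes, and Ccl7 had rank 35, 18, 65 and 14. Cxcl10 was the most abundant other ligand in fibroblasts alone, and Cxcl12 was so in the cocultured fibroblasts of either kind.

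**Figure D1:**
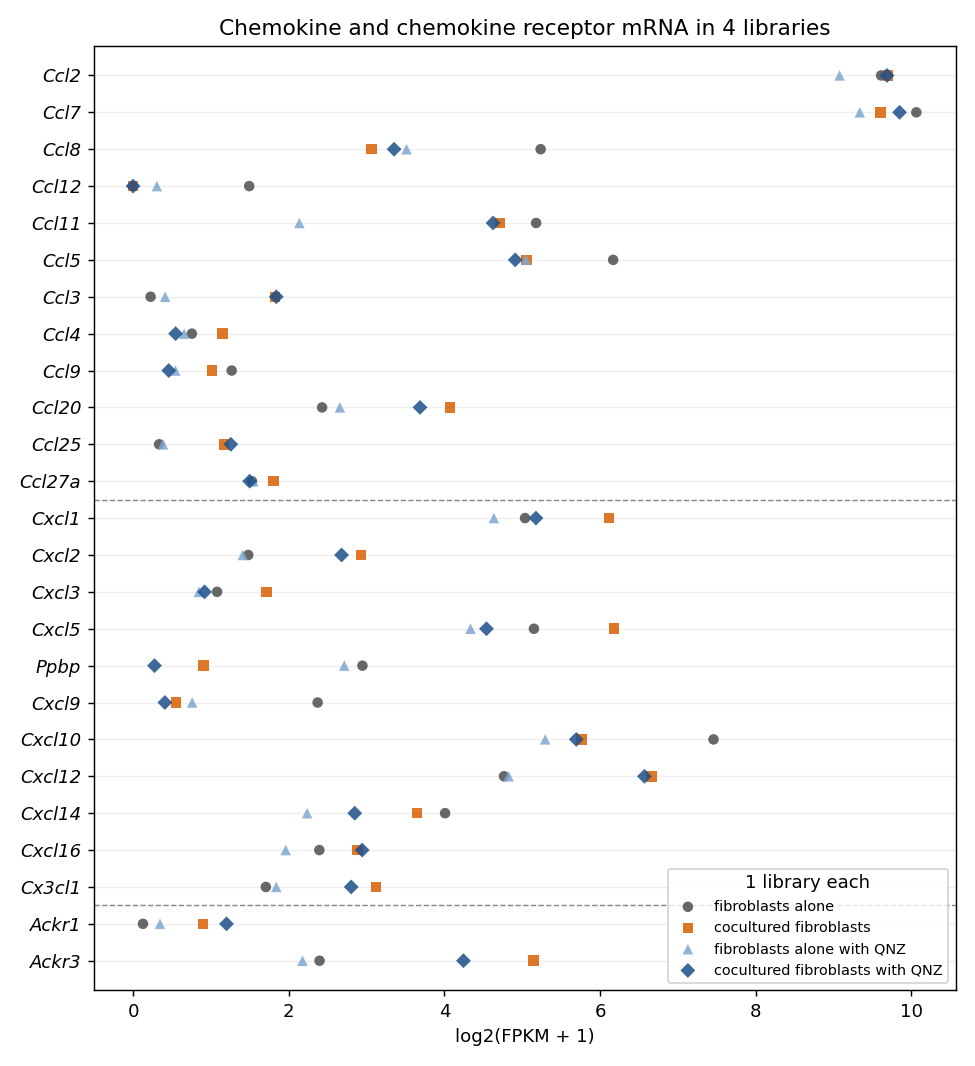
Level of the 25 members with at least 1 FPKM in any library, as log2(FPKM + 1) on the x axis, with 1 row per member, 1 point per library and dashed lines between CC ligands, other ligands and atypical receptors. Ccl2 and Ccl7 lie farthest to the right in every library, and Ackr3 at 4.26, 34.3, 3.52 and 18.0 FPKM is the only atypical receptor above 2 FPKM.

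In cocultured fibroblasts without QNZ, 8 members were counted higher and 6 lower than in fibroblasts alone. Among all genes, 12.5% were counted higher and 5.73% lower, and among genes with at least 1 FPKM the shares were 24% and 11%. The median difference of the 25 members with at least 1 FPKM was 0.40, beside 0.35 for all genes with at least 1 FPKM. The higher members were Cxcl12, Ackr3, Cx3cl1, Ccl20, Ccl3, Cxcl1, Cxcl2 and Cxcl5. The lower members were Cxcl9, Cxcl10, Ppbp, Ccl5, Ccl8 and Ccl12. In the pair with QNZ, which shares no library with the first, 6 members were counted higher and 1 lower, against 7.25% and 4.51% of all genes and 14% and 8.7% of those with at least 1 FPKM. Its median was 0.54 for the members and 0.18 for all genes with at least 1 FPKM. Whether the pairs differ from each other was not tested. The counting interval of the ratio lay above 1 for 13 of the 25 members and below 1 for 9 without QNZ, and above 1 for 16 and below 1 for 2 with QNZ. No share over all genes is given for such intervals, so these counts do not set the members apart from other genes.

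Cxcl12 and its scavenging receptor Ackr3 were both higher in coculture, whether or not QNZ was present. Cxcl12 (ENSMUSG00000061353, chr6:117168535-117181367 on mm10), the homeostatic ligand of CXCR4 that retains haematopoietic and stem cells in their niche, was at 26.2, 100.4, 27.3 and 94.0 FPKM. Both cocultured libraries were far above both libraries of fibroblasts alone, by 3.83-fold (3.69 to 3.98) without QNZ and 3.44-fold (3.31 to 3.57) with it. Ackr3 (ENSMUSG00000044337, chr1:90203980-90216751), also called CXCR7, takes up Cxcl12 and lowers its free level, and was at 4.26, 34.3, 3.52 and 18.0 FPKM. Its ratio was 8.04 (6.99 to 9.30) without QNZ and 5.10 (4.34 to 6.02) with QNZ. Cxcr4, the signalling receptor for Cxcl12, had 0, 4, 1 and 2 reads. Ackr1, which binds many inflammatory chemokines, had 2, 18, 6 and 24 reads and overlaps Cadm3 on the same strand, so that its reads are uncertain. Ackr4 had at most 7 reads in a library, and Ackr2 had none.

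Of the 5 neutrophil attractants with an ELR motif that reached 1 FPKM, Cxcl1, Cxcl2 and Cxcl5 were counted higher in coculture without QNZ and Ppbp lower. Cxcl1 was at 31.8, 68.2, 23.9 and 35.2 FPKM, and its coculture ratio was 2.14 (1.98 to 2.32) without QNZ and 1.47 (1.33 to 1.63) with it. Cxcl5 was at 34.5, 71.4, 19.2 and 22.3 FPKM, with ratios of 2.07 (1.92 to 2.23) and 1.16 (1.03 to 1.31). Cxcl2 was lower in level, at 1.79, 6.60, 1.65 and 5.40 FPKM, and its ratios of 3.69 (2.74 to 5.04) and 3.27 (2.38 to 4.55) were alike in both pairs. Of these 3 genes, only Cxcl2 was counted in the pair with QNZ. Cxcl3 was at 1.11, 2.29, 0.797 and 0.891 FPKM and was counted in neither pair. In the other direction stood Ppbp, the precursor of the platelet chemokine CXCL7, at 6.71, 0.869, 5.56 and 0.211 FPKM from 112, 14, 95 and 3 reads. It was lower in both cocultured libraries than in either library of fibroblasts alone, by 7.72-fold (4.42 to 14.6) without QNZ and 26.4-fold (8.76 to 130) with QNZ. It was the only member counted lower in both pairs, but after removal of a trend with gene length alone its difference without QNZ was -0.87 and no longer counted. Under median-of-ratios scaling the differences of Cxcl1 and Cxcl5 without QNZ were 0.64 and 0.59 and no longer counted.

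**Figure D2:**
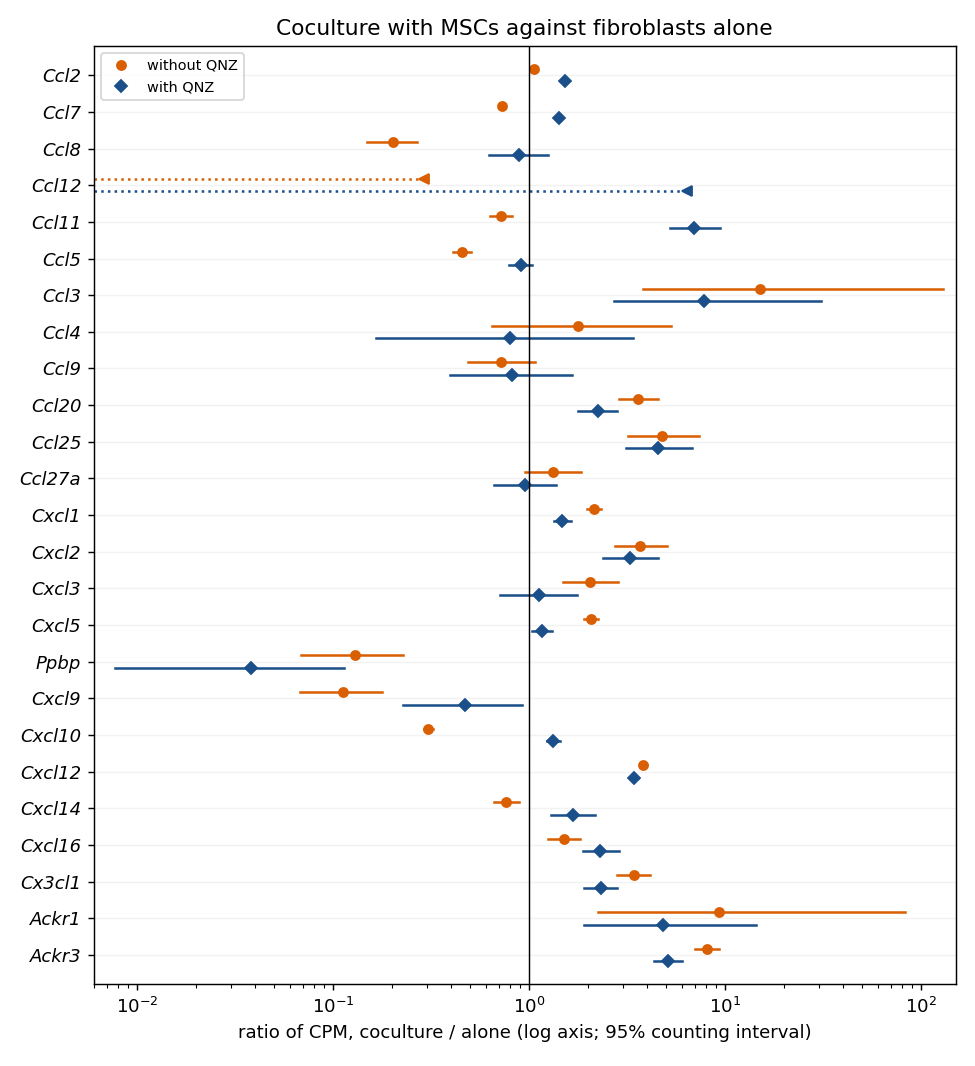
Ratio of CPM in cocultured fibroblasts over fibroblasts alone for each of the 25 members, on a log axis, in the pair without QNZ and the pair with QNZ. Points are ratios, bars are exact 95% counting intervals, the dotted line with a triangle is an upper limit where the cocultured library had no read, and Cxcl10 and Ccl11 sit below 1 without QNZ and above 1 with QNZ.

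Of the 3 ligands of CXCR3, Cxcl9 and Cxcl10 were lower in coculture than in fibroblasts alone where no QNZ was given. Cxcl10 was at 175, 53.3, 38.3 and 50.8 FPKM. The library of fibroblasts alone stood above the other 3, which lay close together, and the coculture ratio of 0.305 (0.289 to 0.321) without QNZ became 1.33 (1.23 to 1.43) with QNZ. Cxcl10 overlaps Art3 on the other strand, and whether strand was used in counting is not stated, which leaves the reads of such overlapping genes uncertain. Cxcl9 was at 4.17, 0.468, 0.693 and 0.328 FPKM and was 8.92-fold (5.67 to 14.7) lower in coculture without QNZ. Its ratio with QNZ was 0.473 (0.228 to 0.922), from 33 and 13 reads. Cxcl11 had 17, 8, 3 and 4 reads and never reached 1 FPKM, with the highest count again in fibroblasts alone. The 3 genes lie side by side on chromosome 5, within 44.1 kb.

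Among the CC ligands of the chromosome 11 cluster, Ccl2 hardly differed while Ccl8 and Ccl12 were lower. With a trend in gene length and GC content removed both of these calls ended, at -0.71 and -0.33, and Ccl2 was counted higher, at 1.02. The coculture ratio without QNZ was 1.06 (1.04 to 1.09) for Ccl2 and 0.728 (0.709 to 0.748) for Ccl7. Ccl8, a monocyte attractant, was at 36.7, 7.37, 10.4 and 9.22 FPKM, which is 4.98-fold (3.73 to 6.76) lower in coculture without QNZ. Again fibroblasts alone stood above the other 3 libraries. Ccl12, a mouse CCR2 ligand, had 15, 0, 2 and 0 reads. Against a floor of 3 reads in the cocultured library without QNZ it was at least 4.83-fold lower, before the counting error of the 15 reads. The exact interval of its ratio, which covers that error, reached up to 0.289, or 3.46-fold lower. Ccl11 (chr11:82057823-82062955), or eotaxin, which attracts eosinophils through CCR3, was at 35.2, 25.2, 3.40 and 23.7 FPKM. As for Ccl2 and Ccl7, its lowest level was in fibroblasts alone with QNZ, so that the coculture ratio was 0.717 (0.630 to 0.815) without QNZ and 6.97 (5.26 to 9.38) with QNZ.

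The CC ligands Ccl5, Ccl3, Ccl4 and Ccl9 went different ways. Ccl5, which attracts T cells and monocytes, was at 70.9, 32.2, 32.1 and 29.1 FPKM. Its ratio in coculture was 0.454 (0.406 to 0.507) without QNZ and 0.906 (0.789 to 1.04) with it, and only fibroblasts alone stood apart. The call without QNZ was lost with TPM, at -0.62, and the sign turned, to 0.15, with the length trend removed. Ccl3, made mainly by leukocytes, had 2, 29, 4 and 26 reads, which is a ratio of 15.0 (3.80 to 130) without QNZ and 7.80 (2.71 to 30.7) with QNZ. Ccl4 had 7, 12, 6 and 4 reads and Ccl9 had 66, 46, 22 and 15. Of the leukocyte markers with the most reads, Lyz2 had 37, 123, 48 and 28, Cd68 had 29, 98, 69 and 86, and Cd14 had 118, 96, 133 and 87. Csf1r had 22, 53, 7 and 25 and Adgre1 had 1, 20, 2 and 9, both higher in coculture with and without QNZ. Ptprc had 2, 5, 3 and 0, and S100a8 had 5, 4, 12 and 2. The markers did not all move alike. The part of leukocyte RNA in the Ccl3 difference was not tested.

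Ccl20, the ligand of CCR6 on dendritic cells and T cells, was at 4.38, 15.8, 5.31 and 11.9 FPKM, and its coculture ratios were 3.60 (2.86 to 4.57) and 2.24 (1.78 to 2.82). Cx3cl1 (fractalkine), which is made as a membrane-bound ligand, was at 2.26, 7.72, 2.58 and 5.98 FPKM, with ratios of 3.41 (2.81 to 4.16) and 2.32 (1.91 to 2.82). Both genes were higher in each cocultured library than in either library of fibroblasts alone, but Cx3cl1 with QNZ differed by 0.96 and was not counted. Cxcl16, the other membrane-bound chemokine, was at 4.25, 6.39, 2.90 and 6.69 FPKM and overlaps Zmynd15 on the other strand. Cxcl14, a ligand common in epithelium and stroma, was at 15.1, 11.6, 3.71 and 6.20 FPKM. Ccl25, best known from thymus and gut, was at 0.262, 1.25, 0.306 and 1.39 FPKM and overlaps Elavl1 on the other strand. Ccl27a, at 1.88, 2.49, 1.92 and 1.82 FPKM, had an interval that included 1 in both coculture pairs and overlaps Il11ra1.

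Several ligands were lower with QNZ in fibroblasts alone, and fewer members were counted with QNZ in coculture. In fibroblasts alone 7 members were counted lower with QNZ and 0 higher, while 0.774% of all genes were lower and 0.577% higher. Of genes with at least 1 FPKM, 1.49% were lower and 1.11% higher. The median of the 25 members was -0.40, beside 0.19 over all genes with at least 1 FPKM. In coculture 1 member, Cxcl5, was lower and 0 were higher, where 0.394% of all genes were lower and 0.16% higher (0.759% and 0.309% of those with at least 1 FPKM), and the median was -0.15 beside 0.051. The counting interval of the ratio lay below 1 for 13 of the 25 members and above 1 for 0 in fibroblasts alone, and below 1 for 10 and above 1 for 1 in coculture. Again no share over all genes stands beside these interval counts. With a pseudocount of 0.1 the members counted lower were 11 in fibroblasts alone and 7 in coculture. Whether QNZ acted differently in the 2 settings was not tested. Each QNZ comparison shares a library with each coculture comparison.

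The members lower with QNZ in fibroblasts alone were Ccl11, Cxcl10, Cxcl14, Ccl8, Cxcl9, Ccl12 and Ccl5. With the length trend removed Ccl12 was at -0.78 and Ccl5 at -0.79, and neither was counted. Ccl11 had the largest difference, 10.4-fold (7.90 to 13.8), with 587 reads without and 58 with QNZ. Cxcl10 was 4.57-fold (4.31 to 4.85) lower, and Cxcl14 4.07-fold (3.28 to 5.08). Cxcl9 was 6.02-fold (4.15 to 8.99) lower and Ccl8 3.52-fold (2.75 to 4.55). Of these 7 genes, 5 were also counted lower in coculture without QNZ, and the exceptions were Ccl11 and Cxcl14. That both comparisons use the same library of fibroblasts alone ties these values together. Ccl2 and Ccl7 were not counted, at ratios of 0.691 (0.673 to 0.709) and 0.604 (0.587 to 0.621). Cxcl12 and Cxcl2 hardly differed, with 1.04 (0.995 to 1.10) and 0.925 (0.626 to 1.37).

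In coculture the QNZ ratio of Cxcl5 was 0.312 (0.283 to 0.343), and its 22.3 FPKM lay near the 19.2 FPKM of fibroblasts alone with QNZ. Cxcl1 at 0.515 (0.475 to 0.559), Cxcl3 at 0.390 (0.266 to 0.560) and Ackr3 at 0.524 (0.481 to 0.570) had intervals below 1 without being counted. Cxcl12 was at 0.936 (0.912 to 0.961), and Cxcl10 at 0.953 (0.889 to 1.02) and Ccl11 at 0.939 (0.810 to 1.09) had intervals that include 1. Only for Ccl7 did the interval lie above 1, at 1.18 (1.15 to 1.22), while Ackr1 at 1.51 and Ccl8 at 1.25 were among those with a ratio above 1 and an interval that includes 1. The intervals of Ccl9, Cxcl1, Cxcl14 and Cxcl5 lay below 1 in both QNZ pairs.

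**Figure D3:**
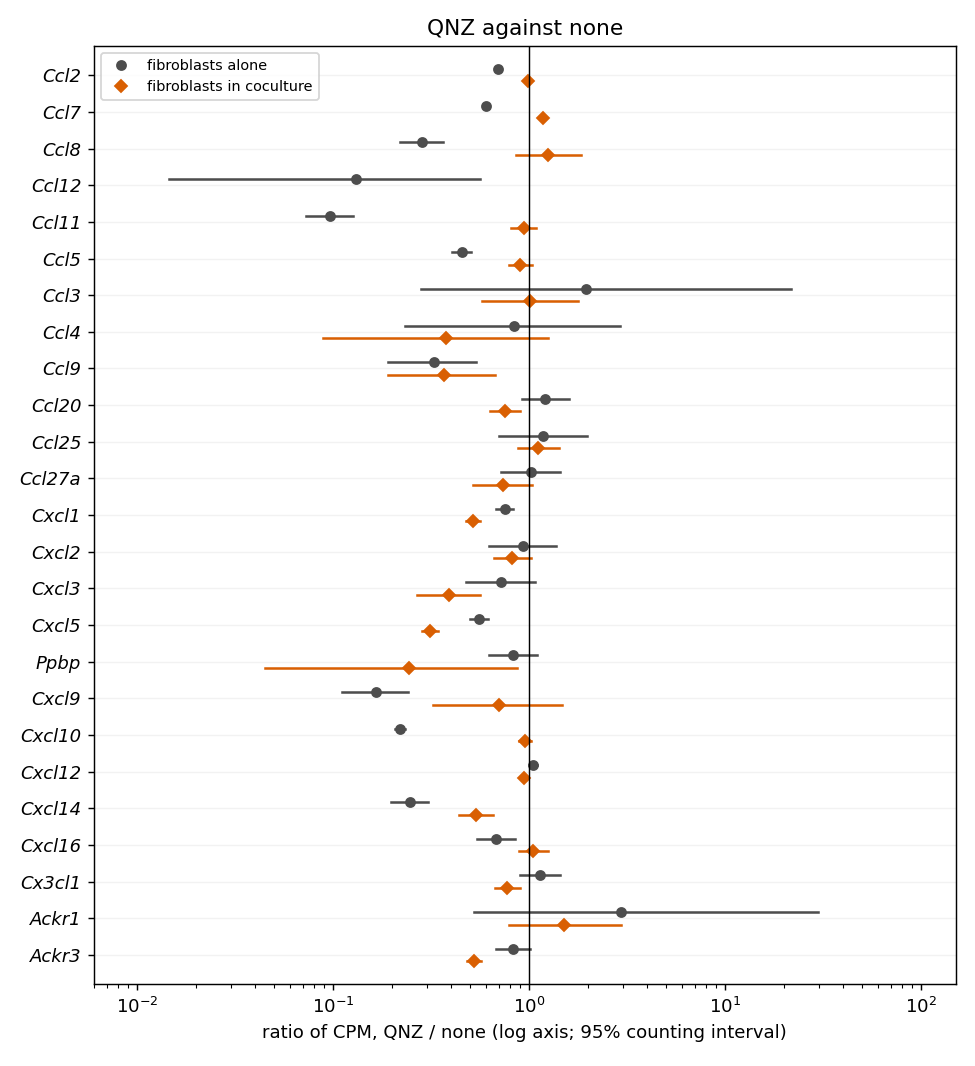
Ratio of CPM with QNZ over without QNZ for each of the 25 members, on a log axis, in fibroblasts alone and in cocultured fibroblasts. Points are ratios and bars are exact 95% counting intervals, and Ccl11, Cxcl9, Cxcl10, Cxcl14 and Ccl8 sit far below 1 in fibroblasts alone. In coculture Cxcl5 is the only member counted, while Ppbp has the lowest ratio, 0.242 from 14 and 3 reads. Ccl12 has no point in coculture, where it had no read with or without QNZ.

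Neighbours on a chromosome shared a direction in some places and not in others. Without QNZ, Cxcl5, Cxcl3, Cxcl1 and Cxcl2 were all higher in coculture, and Ccl7, Ccl11, Ccl12 and Ccl8 all lower, of which Ccl7, Ccl11 and Ccl12 turned positive with the length trend removed. From Cxcl5 to Cxcl2 the ELR cluster spans 147 kb, and Ppbp starts 9.16 kb from the start of Cxcl5, yet the difference in coculture without QNZ was 1.03 for Cxcl5 and -2.04 for Ppbp. Cxcl15 in the same cluster had no read, and Pf4, a platelet chemokine, had at most 4 reads in a library. In the Ccl2 to Ccl1 cluster, where Ccl8 starts 79.6 kb from the start of Ccl2, Ccl2 differed by 0.09 and Ccl8 by -2.17.

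**Figure D4:**
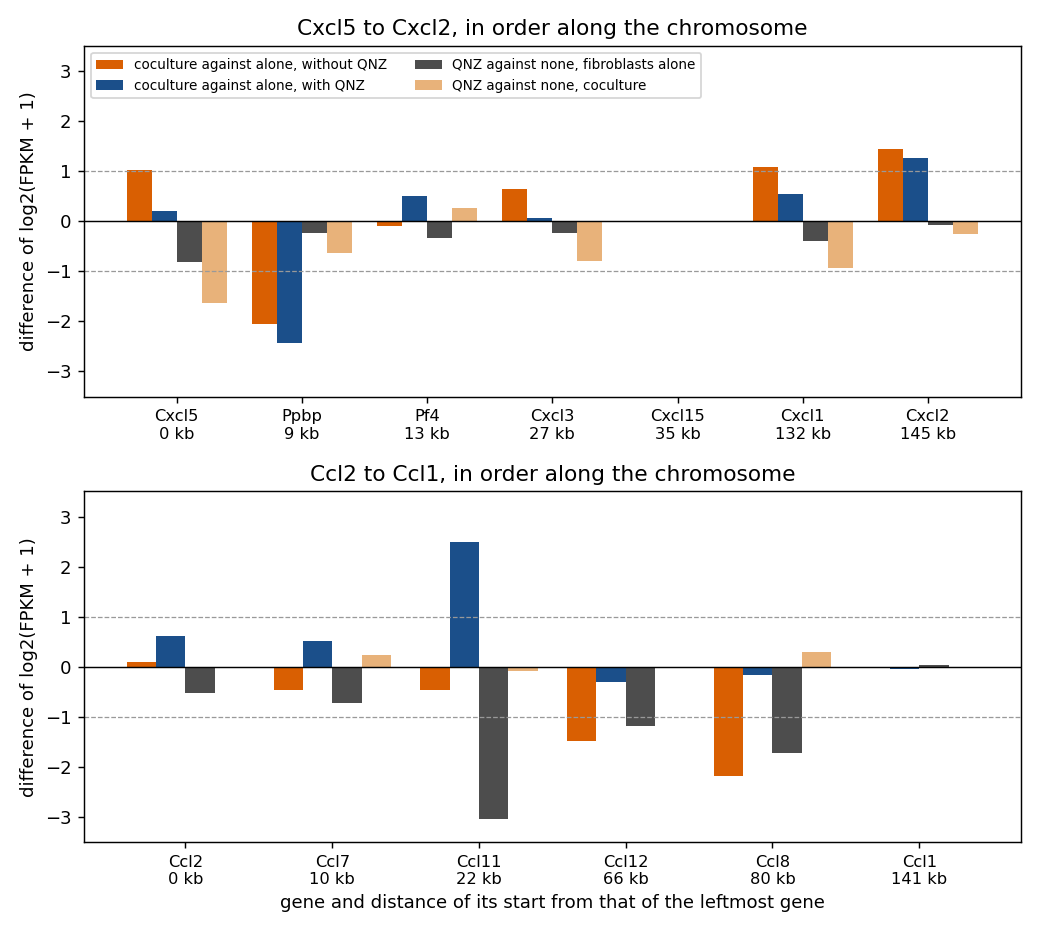
Differences on log2(FPKM + 1) for the genes of the Cxcl5 to Cxcl2 and Ccl2 to Ccl1 clusters in chromosome order, with the distance in kb from the leftmost gene start under each name. Bars are the 4 comparisons, the dashed lines mark differences of 1 and -1, and Ppbp points down beside Cxcl5, which points up in coculture without QNZ.

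Signalling receptors for these ligands were near or at the floor of detection. None of the 16 signalling receptors reached 1 FPKM, 9 had no read in any library, and all 16 together had 7, 53, 21 and 19 reads. A count of 0 allows 3 reads, which is 0.195, 0.202, 0.190 and 0.228 CPM. The most reads for 1 receptor in a library were the 19 of Cxcr6, the receptor of Cxcl16, in cocultured fibroblasts, at 0.662 FPKM, with 5, 2 and 1 in the other libraries. Ccr1 had 0, 10, 14 and 3 reads, Ccr10, a skin-homing receptor, had 2, 14, 2 and 12, and Ccr9, the receptor of Ccl25, had 6 reads in cocultured fibroblasts only. Cxcr6 overlaps Fyco1 and Ccr10 overlaps Cntnap1, each on the other strand. Ccr9 overlaps genes on both strands, among them Gm17200 on the same strand. The few reads of Cxcr6, Ccr10 and Ccr9 are therefore uncertain. Cxcr2, through which the ELR ligands act, had 1 read in all. Receptors without a read included Ccr2, which binds Ccl2 and Ccl7, and Cxcr3, which binds Cxcl9 and Cxcl10. Over all classes, 16 members had reads but stayed under 1 FPKM. Of the ligands among them, Ccl28, a mucosal chemokine, had 3, 29, 16 and 38 reads, Ccl6 had 4, 21, 5 and 0, and Ccl17 had 6 in fibroblasts alone only, while Ccl1, Cxcl13 and Cxcl17 had 1 read in all. Among ligands no read was found for Ccl19, Ccl21a, Ccl21b, Ccl22, Ccl24, Ccl26, Ccl27b, Cxcl15 and Xcl1.

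Genes that shape or carry the chemokine signal were counted from lists, without a test and without removal of a trend with gene length. Beside them stand all genes with at least 1 FPKM, of which 24% were higher and 11% lower in coculture without QNZ, and 14% and 8.7% with QNZ. Of 15 proteases that cut or shed chemokines, 13 reached 1 FPKM, and 8 were higher in coculture without QNZ and 5 with it, with none lower. Among them Mmp13, a collagenase that cuts several chemokines, differed by 3.40, and Adam17, which releases Cx3cl1 and Cxcl16 from the membrane, by 1.34. Of 21 genes of heparan sulphate, 6 were higher without QNZ and 2 with it, with a difference of 1.66 for the core protein Hspg2, and the share of 28.6% without QNZ lay near that of all genes. Of 16 NF-κB genes, 5 (31.2%) were higher without QNZ and 3 with it, and none was counted in either QNZ comparison. Nfkbia, the feedback inhibitor of NF-κB, was at 33.4, 100.02, 34.8 and 82.4 FPKM. Of 21 interferon genes, 4 were higher and 4 lower in coculture without QNZ, and 5 were lower with QNZ in fibroblasts alone. Isg15 at -2.65, Oas1a at -2.13, Ifit3 at -1.86 and Irf7 at -1.28 were lower in coculture without QNZ, as were the interferon-induced Cxcl9 and Cxcl10. Ifngr1 at 1.42 and Ifnar1 at 1.21 were among the higher ones, and Rsad2 at -0.11 and Ifit1 at -0.42 were not counted. In the coculture pair with QNZ, Isg15 differed by -1.48 and Ifit3 by -0.14. Rgs4, which shortens G-protein signalling, was at 4.71, 19.6, 2.66 and 7.75 FPKM.

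Gene length moved with the coculture difference. The 25 members had a median length of 1863 bases, against 4484 for all genes with at least 1 FPKM. Over the 1987 such genes of 1000 to 2500 bases, 7.55% were higher and 28.7% lower in coculture without QNZ, and their median was -0.45. With QNZ the coculture shares were 4.68% and 23.0%. After a trend with length and GC content was removed, Cxcl12 differed by 1.59, Ackr3 by 2.99, Cxcl10 by -1.20 and Ppbp by -1.20 without QNZ, while Ccl12 was at -0.33 (0.11 with length alone) and Ccl5 at 0.30, a change of sign. The same trend was small for QNZ in fibroblasts alone, where genes of that length had a median of 0 and 3.42% were lower. The cause of the length trend was not tested.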

How the data were processed

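RNA-seq of 4 fibroblast cultures, 1 library each, was analysed. The submitters' processing notes list STAR 2.5.4b, Cuffnorm, Cufflinks 2.2.1 and build mm10. The authors deposited 1 table with a whole read count, not normalized, and an FPKM per gene and library, and the FPKM were reproduced here from count, length and column total within a relative tolerance of 1e-06. The counter, annotation version and strand setting are not given in the sources used here. Columns were matched to conditions by name, and 0 were left unmatched. Where a symbol had several gene IDs (23 symbols) their values were added, giving 21839 genes. Symbols chose the 60 members. The members and gene lists were chosen with earlier results of these data known.

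Differences were taken on log2(FPKM + 1) and counted at 1 or more. Named members are the 25 with at least 1 FPKM in any library, and up to 6 genes counted per list. Intervals of ratios were exact at 95%. With 1 library per condition no p-value or standard deviation was given. Positions came from the table, where 58 of 60 members had the same position in GENCODE M21, which also gave overlaps and GC content. Promoters came from RefSeq, where 45 of 60 members matched. Tools were scipy 1.17.1, statsmodels 0.14.6, pandas 2.3.3 and numpy 2.4.6 in Python 3.11.15, and the calculation was tested on simulated data. Alternatives were a pseudocount of 0.1, a filter at 5 FPKM, median-of-ratios scaling, TPM, a size of 2 and removal of a length trend (lowess, span 0.3). Removal of a trend with length and GC content in 3 rounds was added after the data were seen.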

Additional observations from a re-analysis of the deposited data

Results flagged for a closer look

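The coculture difference had opposite signs without and with QNZ for 4 members with counting intervals on opposite sides of 1. Ccl11 differed by -0.47 without QNZ and 2.49 with it, a gap of 2.95. Cxcl10 differed by -1.70 and 0.40, a gap of 2.09. Ccl7 differed by -0.46 and 0.51, a gap of 0.97, and Cxcl14 by -0.36 and 0.61, a gap of 0.97. For Ccl11, Ccl7 and Cxcl14 the negative sign without QNZ was lost with TPM (0.036, 0.060 and 0.13) and with the length trend removed (0.72, 0.93 and 0.41), while Cxcl10 stayed negative at -1.19 and -1.10. With 1 library per condition the gap between the pairs was not tested, and no share over all genes is given for such opposite intervals.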

How the results depend on the processing

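No paired analysis was possible because the labels give no replicate numbers that pair cultures across conditions. The 2 coculture pairs share no library, but an additive fit of coculture and QNZ was not run. In coculture without QNZ the 8 higher members became 16 with a pseudocount of 0.1, 17 with TPM and 1 at a size of 2, and the 6 lower became 2 after removal of the length trend, 2 at a size of 2 and 3 after removal of length and GC content. With QNZ the 6 higher became 13, 14 and 2 under the same first 3 settings and 15 after removal of length alone or with GC content, and the 1 lower became 4 with a pseudocount of 0.1. For QNZ in fibroblasts alone, 0 higher became 2 with a pseudocount of 0.1, and 7 lower became 11 with it and 2 at a size of 2. For QNZ in coculture, 1 lower became 7 with a pseudocount of 0.1, 7 with TPM and 0 at a size of 2. Without QNZ in coculture, the call of Ppbp was lost (-0.87) after removal of the length trend. Ccl12 there changed sign to 0.11 after removal of the length trend and Ccl5 to 0.15, or to 0.30 with GC content. Of 29 counted differences, 29 still passed with a pseudocount of 0.1, 26 with median-of-ratios scaling, 28 with TPM, 23 after removal of length and 24 after removal of length and GC content. In coculture without QNZ the median of all genes with at least 1 FPKM was 0.35, and it was 0.90 with TPM and -0.0017 with median-of-ratios scaling. Depth limits the members with few reads, such as Ccl12, Ccl3 and the receptors.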
